A study of Xenopus laevis with 64 samples.

Results

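The genes described here are tuba1, which encodes an alpha-tubulin, tubb4b.L, which encodes a beta-tubulin, and cct3.S, which encodes a subunit of the cytosolic chaperonin. They are 3 of the 230 gene symbols on a small cDNA array of Xenopus laevis, and each is represented by 1 of the 406 pairs of neighbouring spots, found through the platform's gene symbols. They were chosen by their measured changes with T3 in the tail and with PTU in the hindlimb at 96 h. Their values in those comparisons are therefore given as a description and without a test.

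Alpha- and beta-tubulin form the dimers from which microtubules are built, the filaments of the mitotic spindle, of cilia and of axons. Newly made tubulin, like actin, is folded inside the chaperonin called CCT or TRiC, a double ring of related subunits of which cct3 is one. Thyroid hormone drives tadpole metamorphosis, in which the hindlimb grows and the tail is resorbed.

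Tadpoles at NF stage 54 were kept in T3 (1.92 nM), the more active thyroid hormone, in T4 (10 nM), its precursor, or in 1 of 3 inhibitors of the thyroid. PTU (propylthiouracil, 20 mg/L) and MMI (methimazole, 100 mg/L) block hormone synthesis in the gland, and PER (perchlorate, 4 mg/L) blocks its uptake of iodide. The 38 hindlimb arrays form 12 groups, which are T3, T4, PTU, MMI and PER at 24 h, PTU, MMI and PER at 96 h, and their controls. The 26 tail arrays form 8 groups, all at 48 h. Controls received no added agent. T3 and T4 each had controls of their own, and the 3 inhibitors shared 1 control group for each tissue and time. The T3 and T4 groups hold 4 animals and every other group 3, with 1 array for each animal. The labels do not tie animals to tanks, so the errors measure only the spread between these animals.

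The deposited values were spot intensities with background already subtracted, and between 19.9 and 50.6% of the spots of an array lay below 0. A spot pair is called above background where its mean exceeded 2 times the noise SD of its array, an SD estimated from the negative values. Between 22 and 93 of the 406 pairs passed this limit on an array (median 48.5). Levels below are given either as deposited intensity or as normalized intensity on a log2 scale, and changes are differences of the latter. The number of arrays limits the precision. The muscle gene des.1.S (desmin) and the glycolytic gene pkm.S separated tail controls from hindlimb controls, with 1 exception. The library labelled as replicate 3 of the T4-set tail controls read 9.51 for des.1.S, where the other 8 tail controls ran from 12.37 to 13.63 and the 9 hindlimb controls at 24 h from 8.70 to 10.75. For pkm.S that library read 9.04, against 11.85 to 13.76 in the other tail controls and 8.78 to 10.07 in hindlimb controls. The muscle gene myf5.L read 9.77 there, within both the 8.95 to 11.35 of the other tail controls and the 9.56 to 12.01 of hindlimb controls. The intensity of 10 cell cycle genes, normalized within each tissue, was also summed. The sum ran from 12490 to 18004 in the 3 T4-set tail controls, that library included, and from 67033 to 71018 in T4-set hindlimb controls. The tissue of that library was not tested. Of the hindlimb list, pitx1.L alone was on the array and was above background on 1 of 38 hindlimb arrays and 1 of 26 tail arrays.

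In tails given T3 for 48 h, all 3 genes averaged above their controls, a difference on which they were chosen. tuba1 had deposited intensities of 4169, 4088, 1871 and 2868 in T3 tails, against 270.3, -588 and 991 in their control tails. Every T3 tail lay above every control tail. tubb4b.L had 3715, 3619.7, 8619.6 and 4735 in T3 tails, against 528, 541 and 1344 in control tails. These groups did not overlap either, and the highest value was that of T3 replicate 3. cct3.S was blank on the first T3 array and had 5195, 11589 and 2029 on the other 3, against 2012, -108 and 538 in control tails. The lowest T3 value of cct3.S was close to the highest control value, and on the normalized scale the groups overlapped. Its pair on T3 replicate 4 consisted of spots at -509 and 4566, so that value rests on 1 of 2 spots.

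**Figure D1:**
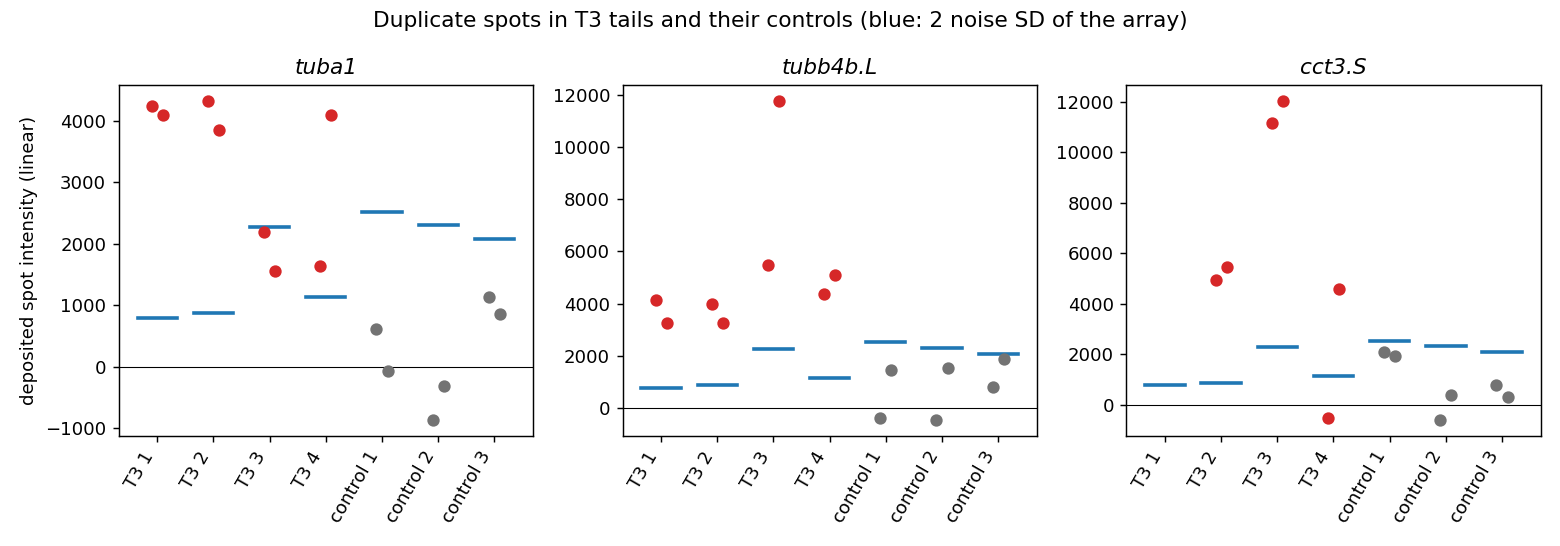
Deposited intensity (linear scale) of the duplicate spots of tuba1, tubb4b.L and cct3.S on the 4 T3 tail arrays (red) and their 3 control arrays (grey), with 2 noise SD of each array as a blue line. The pair means of all 3 genes on the controls lie under the line, and tubb4b.L lies above it on all 4 T3 arrays.

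On the normalized scale tuba1 averaged 11.28 ± 0.35 in T3 tails (SD, n = 4) and 9.71 ± 0.64 in control tails (SD, n = 3), a change of 1.57 (SE 0.43). tubb4b.L averaged 11.57 ± 0.34 in T3 tails (SD, n = 4) and 10.17 ± 0.47 in control tails (SD, n = 3), a change of 1.40 (SE 0.55). cct3.S averaged 11.38 ± 1.00 in T3 tails and 10.09 ± 0.72 in control tails (SD, n = 3 each), a change of 1.30 (SE 0.50). The median change of all 52 pairs was 0.06. Scaling moved that median to 0.43 with median centring and to -0.30 with arrays centred on bright pairs. Relative to it tuba1 read 1.45 and tubb4b.L 1.55 under either. Both centrings shift all values of an array by 1 constant, so that equality follows from the method and tests nothing. cct3.S, blank on 1 T3 array, read 1.32 with median centring and 1.41 with bright centring. None of the 3 genes was above background in a control, so the T3 mean was also set against a floor. The floor was the lowest signal over the background limit of each control array, or the gene's own value where higher. Against the mean floor, T3 tails averaged 1.27-fold for tuba1, 1.56-fold for tubb4b.L and 1.37-fold for cct3.S. These ratios leave out the spread between animals, so they are not lower bounds of the change. Across the whole table limma called 0 of 52 pairs in this comparison after Benjamini-Hochberg adjustment (0%), with 6 at an unadjusted p under 0.05. Without control replicate 3 it called 1. Of the 52 pairs, 2 had all T3 arrays above all controls (3.85%), and 3 had all T3 arrays below all controls (5.77%). The 2 were tuba1 and tubb4b.L, which restates their choice on this comparison.

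The noise of the arrays differed between these groups. T3 replicates 1, 2 and 4 had a noise SD of 393 to 568 and 60 to 93 pairs above background. T3 replicate 3 had a noise SD of 1135 and 37 pairs above background, within the range of the 3 controls, which had a noise SD of 1042 to 1260 and 34 to 43 such pairs. On T3 replicate 3 tubb4b.L and cct3.S were above background and tuba1 was not. Of the 52 tested pairs, 9 were above background on at least 3 T3 arrays and on 0 of 3 controls (17.3%), the 3 genes among them. Without T3 replicate 3 the changes were 1.75 for tuba1, 1.30 for tubb4b.L and 0.96 for cct3.S.

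Markers of other cell types were read on the same arrays. Of 10 cell cycle genes on the array, 3 were tested with T3 in the tail and 0 were called. Their median change was 0.78, and the summed normalized intensity of the list ran from 14026 to 23980 in T3 tails and from 12570 to 18635 in control tails. On 1 T3 array 1 gene of this list was blank and added nothing to the sum. The muscle list, with 2 of 3 genes tested, had a median change of -0.16. The 2 genes went opposite ways, with a change of 0.38 for des.1.S and one below 0 for tpm4.S. The sum of the muscle list ran from 12951 to 24685 in T3 tails and from 14309 to 28099 in control tails. Of the markers of neurons and myelin, gap43.S was above background on 0 of 26 tail arrays and mbp.S, the myelin basic protein gene, on 2. Their summed intensity ran from 1101 to 2957 in T3 tails and from 1185 to 1400 in control tails. The part of these cell types in the tubulin values was not tested. In RNA of whole organs, fewer cells of a type and less RNA per cell cannot be told apart.

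T4 in the tail was given at another concentration than T3, so the values are set side by side without a test between them. tuba1 had -117, 596, 433 and 1289 in T4 tails, against 1251, 2001 and -61.0 in their control tails. It was above background on 1 of 4 T4 arrays and 2 of 3 controls, and its change was -0.33 (SE 0.43, 95% interval -1.22 to 0.56). In limma this gave an adjusted p of 0.866, where 0 of 58 tested pairs were called (0%) and 4 had an unadjusted p under 0.05. Without replicate 3 of the T4-set controls, the library with hindlimb-like levels of des.1.S and pkm.S, the change of tuba1 was -0.85 with an adjusted p of 0.978. tubb4b.L had 114, 574, 313 and 1029 in T4 tails, against 2425, 317 and -165 in control tails, a change of -0.04 (SE 0.55). cct3.S had 459, 207, 12.8 and 1194 in T4 tails, against 1445, 107 and 728 in control tails, a change of -0.37 (SE 0.47). For these genes the groups overlapped, and too few arrays were above background for a test.

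With the inhibitors in the tail, single arrays were high and most were at background. tuba1 was above background on 1 of 9 inhibitor arrays, tubb4b.L on 3 and cct3.S on 1, against 0 of 3 shared controls for each gene, so none of them was tested. tubb4b.L read 2850 in PTU replicate 3, 5877 in the highest MMI tail and 1158 in PER replicate 2 (spots at 112 and 2204). In control tails it ran from 117 to 548. Its changes were 0.91 (SE 0.59) with PTU, 0.12 (SE 0.59) with MMI and 0.54 (SE 0.59) with PER. cct3.S had changes of -0.70 (SE 0.50) with PTU, 0.11 (SE 0.50) with MMI and -0.68 (SE 0.50) with PER. tuba1 had changes of -0.09 (SE 0.46) with PTU, 0.48 (SE 0.51) with MMI, where 1 of 3 arrays was blank, and -0.58 (SE 0.46) with PER. These comparisons share their control arrays. Over all tested pairs the median change was -0.07 with PTU, -0.31 with MMI and -0.07 with PER. With MMI, 18 of 51 pairs had all treated arrays below all controls (35.3%), and 3 had all above (5.88%). The MMI changes are therefore not on the same footing as those with PTU and PER.

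**Figure D2:**
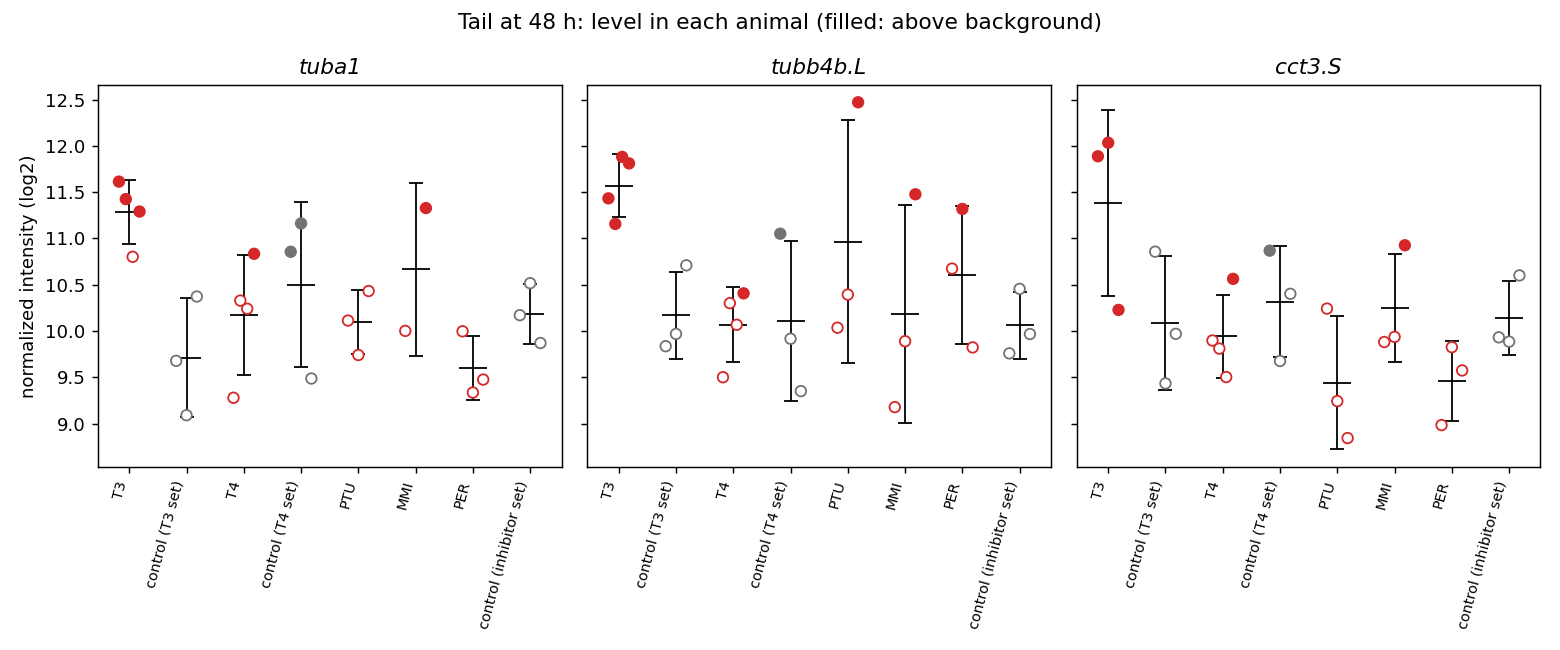
Normalized log2 intensity of each gene in every tail animal at 48 h (treated groups red, controls grey), with the mean and SD of each group; filled points were above background on their array. The T3 group has the highest mean for all 3 genes, and most other points are open.

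In hindlimbs given PTU for 96 h, tuba1 was high on every array. Its spots had 3147 and 4895, 6456 and 6676, and 5705 and 6544 in the 3 PTU hindlimbs. The spots had 1447 and 282, -3654 and 1239, and 1395 and 1117 in the 3 control hindlimbs. Every PTU spot lay above every control spot. Of the 47 pairs tested, 7 had all PTU arrays above all controls (14.9%), and 6, tuba1 among them, were above background on 3 of 3 PTU arrays and 0 of 3 controls (12.8%). The normalized level was 12.18 ± 0.22 with PTU and 10.28 ± 0.78 in controls (SD, n = 3 each), a change of 1.89 (SE 0.58). Against a floor set as for T3 in tail, the PTU mean was 1.70-fold, which again leaves out the spread between animals. Across the whole table limma called 5 of 47 pairs here (10.6%), and since the genes were chosen with this comparison in view no test of theirs is given. Leaving out control replicate 2 or any PTU replicate left 0 pairs called, and 3 were called without control replicate 1 and 9 without control replicate 3. The change of tuba1 ran from 1.47 to 2.16 over these omissions.

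The other 2 genes were above background on fewer of the same arrays. tubb4b.L had 698, 4247 and 3608 in PTU hindlimbs, against -148, 1104 and 988 in control hindlimbs, a change of 0.84 (SE 0.49). It was above background on PTU replicates 2 and 3 and on 0 of 3 controls. cct3.S had 699, -118 and 2095 in PTU hindlimbs, against -403, 575 and 0 in control hindlimbs, a change of 0.67 (SE 0.36). On PTU replicates 1 and 2 its value rests on 1 spot, the other being blank. cct3.S was above background on PTU replicate 3 alone, the array of the 38 hindlimb arrays on which all 3 genes were. With arrays centred on their bright pairs, the change of cct3.S was -0.39 and that of tubb4b.L 0.30, while the median of the 47 pairs moved to -0.48 under it. Relative to that median cct3.S read 0.08, tubb4b.L 0.78 and tuba1 1.83. The PTU arrays had 56 to 69 pairs above background and a noise SD of 688 to 996, and their controls had 22 to 39 pairs and a noise SD of 835 to 1928. The summed intensity of the 3 muscle genes ran from 11932 to 19331 with PTU and from 1185 to 13241 in controls. On 1 control array 1 of these genes was blank and added nothing to the sum. Of the muscle genes 0 of 3 were called, with a median change of 1.12, where all 47 pairs had a median of 0.21. The part of muscle in the tuba1 level was not tested.

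MMI and PER at 96 h were set against the same 3 controls as PTU. tuba1 had 5811, 8349 and 77.3 in MMI hindlimbs and -61.9, 17355 and 9552 in PER hindlimbs, against 864, -1208 and 1256 in control hindlimbs. With each of these inhibitors 2 animals were far above the controls and 1 was at their level. The value of MMI replicate 1 was the mean of spots at 901 and 10721. The changes were 1.13 (SE 0.58, 95% interval -0.05 to 2.32) with MMI and 1.02 (SE 0.58, 95% interval -0.17 to 2.20) with PER. Neither was tested, since 2 arrays were above background and 3 were required. tuba1 was thus above background in 2 of 3 MMI and 2 of 3 PER hindlimbs at 96 h. It was so in 0 of 3 controls, which the choice of genes also used. With the PTU hindlimbs, on which the genes were chosen, the count was 7 of 9. tubb4b.L had changes of -0.10 (SE 0.49) with MMI and 0.52 (SE 0.49) with PER, and cct3.S had 0.20 (SE 0.36) with MMI and 0.48 (SE 0.40) with PER, where 1 of 3 arrays was blank. Neither gene was above background on an MMI or PER array at 96 h.

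At 24 h tuba1 was above background in 0 of 9 inhibitor-treated hindlimbs (intensity -102 to 1112, median 328) and in 0 of 3 controls (0 to 413). The highest, PER replicate 3, lay at 1.79 times the noise SD of its array. On the normalized scale that hindlimb read 11.83. At 96 h PER replicate 3 (11.80) and MMI replicate 1 (11.71), both above background, read lower. How many of all pairs passed the limit at 96 h but not at 24 h was not counted. The changes of tuba1 at 24 h were 0.20 (SE 0.58) with PTU, 0.02 (SE 0.58) with MMI and 0.50 (SE 0.58) with PER. Of these 24 h arrays tubb4b.L was above background in PTU replicate 2 alone. Its changes were -0.16 (SE 0.49) with PTU, -0.96 (SE 0.49) with MMI and -0.64 (SE 0.49) with PER. cct3.S had changes of 0.31 (SE 0.36) with PTU, 0.07 (SE 0.36) with MMI and 0.11 (SE 0.36) with PER and was above background on no array. None of these was tested, because fewer than 3 arrays were above background.

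With hormone in the hindlimb at 24 h, tuba1 was above background on 2 of 4 T3 arrays and 1 of 3 controls. Its level was 11.10 ± 0.78 with T3 (SD, n = 4) and 10.94 ± 0.83 in controls (SD, n = 3), a change of 0.16 (SE 0.54, 95% interval -0.95 to 1.27). The adjusted p in limma was 0.996, where 0 of 53 pairs were called (0%) and 0 had an unadjusted p under 0.05. The highest tuba1 intensity of these groups, 3890, was that of control replicate 3. With T4 the level was 10.80 ± 0.68 (SD, n = 4), against 10.98 ± 0.13 in T4-set controls (SD, n = 3), a change of -0.18 (SE 0.54) that was not tested. tubb4b.L had changes of 0.10 (SE 0.45) with T3 and 0.39 (SE 0.45) with T4. In replicate 2 of the T4-set controls tubb4b.L read 8.30, from 1 spot at -1013, the other being blank. The other T4-set controls read 10.86 and 10.89. With single arrays left out, the change of tubb4b.L with T4 ran from -0.47 to 0.82, so its sign was not stable. cct3.S had changes of 0.25 (SE 0.34) with T3 and 0.37 (SE 0.34) with T4. cct3.S was above background on 0 of these hindlimb arrays.

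**Figure D3:**
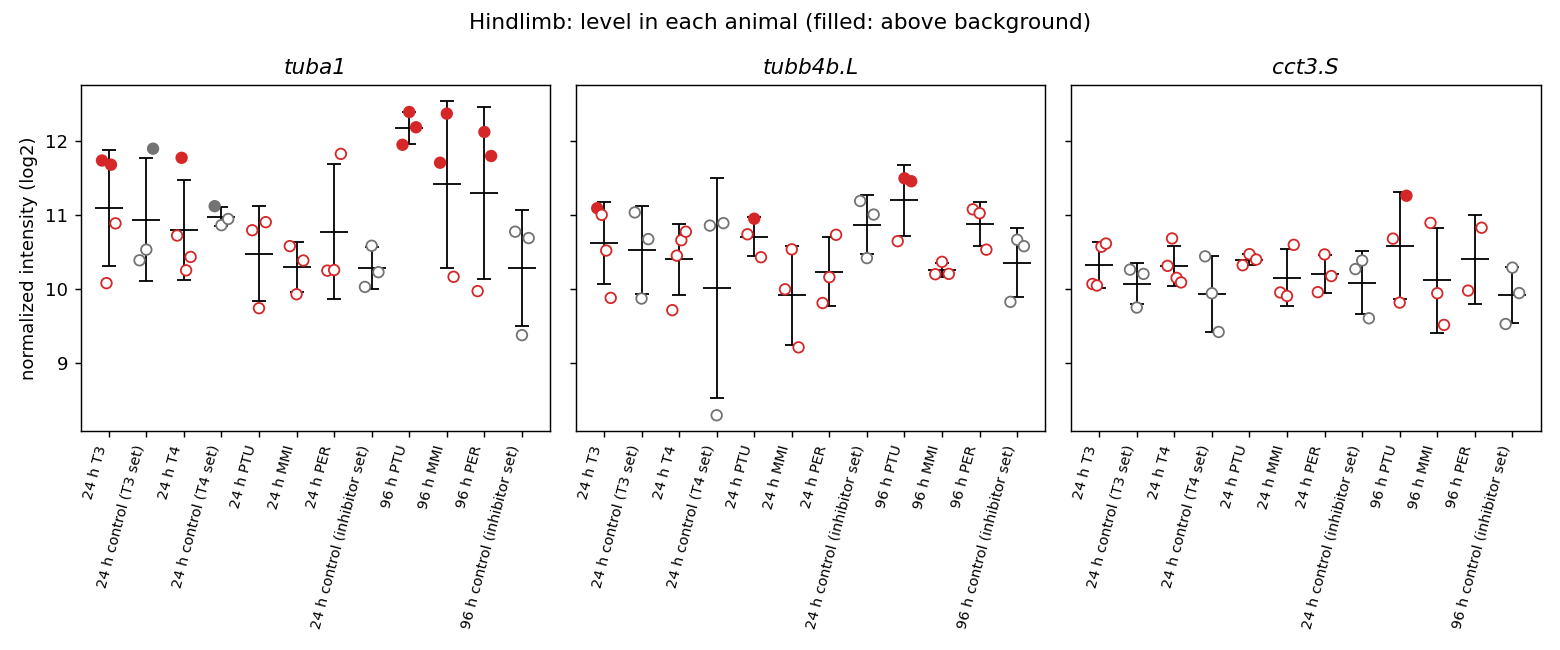
Normalized log2 intensity of each gene in every hindlimb animal at 24 h and 96 h (treated groups red, controls grey), with the mean and SD of each group; filled points were above background on their array. tuba1 has 7 filled points among the 9 inhibitor-treated hindlimbs at 96 h and 0 among the 9 at 24 h. The open point of PER replicate 3 at 24 h (11.83) lies above the filled points of PER replicate 3 (11.80) and MMI replicate 1 (11.71) at 96 h. Of the 7 filled points, 3 are PTU hindlimbs, on which the genes were chosen.

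Between control groups the 3 genes were compared over time and tissue. In inhibitor-set control hindlimbs, the change between 96 h and 24 h was 0.00 (SE 0.58) for tuba1, -0.51 (SE 0.49) for tubb4b.L and -0.17 (SE 0.36) for cct3.S. None was above background in either group, so none was tested. With arrays centred on their bright pairs, these changes were 1.09, 0.65 and 1.13, and the median of all 40 tested pairs was 0.71. Tail controls at 48 h were set against hindlimb controls at 24 h, with 9 arrays each. tuba1 was above background on 2 arrays of each, and its difference was -0.20 (SE 0.28, 95% interval -0.79 to 0.39). limma gave it an adjusted p of 0.611, where 31 of 70 pairs were called (44.3%). Without the tail control of hindlimb-like des.1.S and pkm.S levels, the difference was -0.08. The difference was 0.05 (SE 0.33) for tubb4b.L and 0.55 (SE 0.22) for cct3.S, which were above background on 1 tail control and 0 hindlimb controls each and were not tested. Tissue and exposure time cannot be told apart in this comparison.

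**Figure D4:**
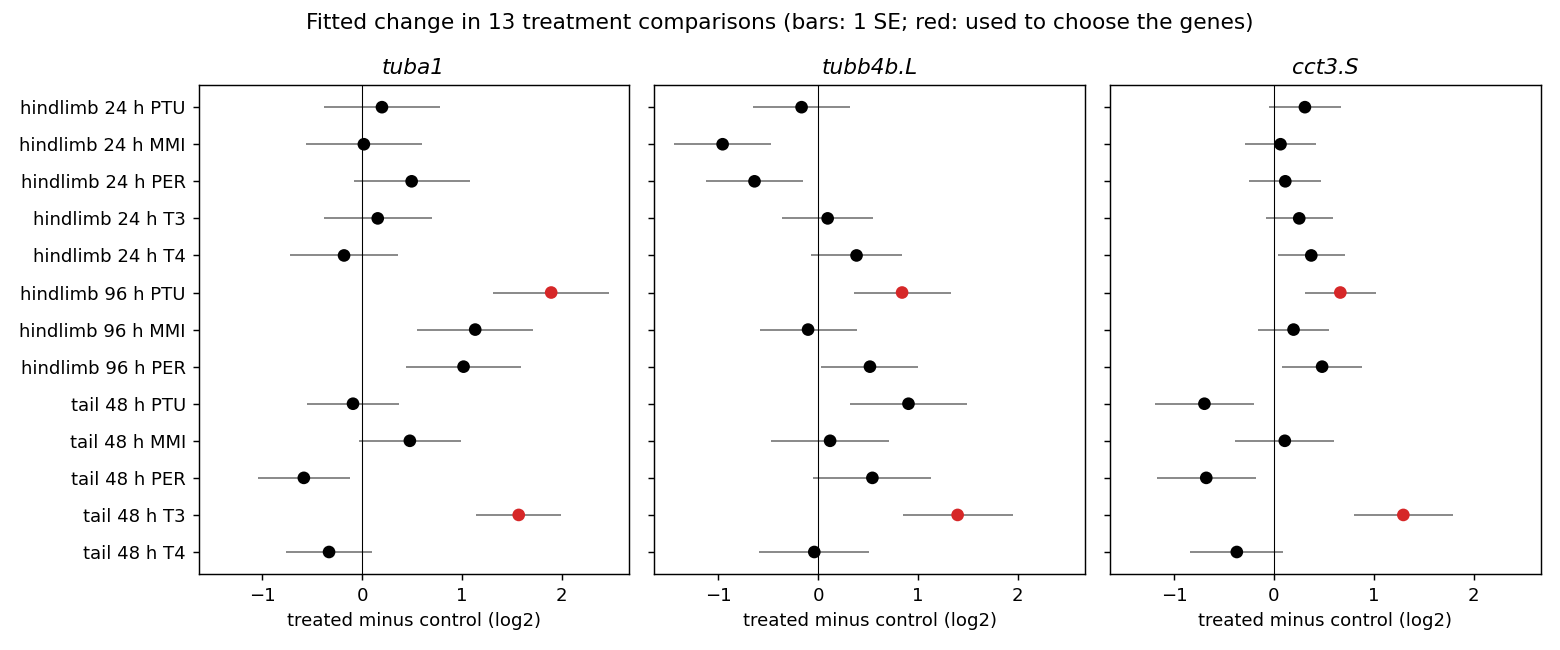
Fitted log2 change (treated minus control) of each gene in the 13 treatment comparisons, with bars of 1 SE; red points mark T3 in tail and PTU in hindlimb at 96 h, the comparisons that the choice of genes rested on. The highest change of tuba1 is 1.89, with PTU in the hindlimb at 96 h, and those of tubb4b.L and cct3.S are 1.40 and 1.30, with T3 in the tail.

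Ordered by mean level, the T3 group came first of 8 tail groups for all 3 genes, and the PTU group at 96 h first of 12 hindlimb groups. The genes were chosen with these groups' changes in view, so the first places restate that choice. For tuba1 the order in tail ran from 11.28 with T3 to 9.60 with PER, and in hindlimb from 12.18 with PTU at 96 h to 10.28 in the 96 h controls. For tubb4b.L it ran from 11.57 with T3 to 10.06 in inhibitor-set controls in tail, and from 11.20 with PTU at 96 h to 9.92 with MMI at 24 h in hindlimb. For cct3.S it ran from 11.38 with T3 to 9.44 with PTU in tail, and from 10.59 with PTU at 96 h to 9.92 in the 96 h controls in hindlimb. Neighbouring groups rarely differed by more than their spread. The gap exceeded the pooled SD of the neighbours at 2 of 7 steps for cct3.S in tail and at 0 steps for cct3.S in hindlimb and for tuba1 and tubb4b.L in either tissue.

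Detection of the genes was counted over all arrays. In tail, tuba1 was above background on 7 of 26 arrays, tubb4b.L on 9 and cct3.S on 6, and all 3 were on 5 arrays. Those arrays were T3 replicates 2 and 4, T4 replicate 4, MMI replicate 3 and replicate 1 of the T4-set controls. On T4 replicate 4 the spots were at 99 and 1958 for tubb4b.L and at 165 and 2222 for cct3.S. On T3 replicate 4 those of cct3.S were at -509 and 4566. On MMI replicate 3 the cct3.S spots were at 6287 and 1072 (noise SD 746). On replicate 1 of the T4-set controls they were at 1945 and 945 (noise SD 489). In all these cases 1 spot lay above 2 times the noise SD of its array and the other below it. cct3.S was above background on 0 tail arrays on which tubb4b.L was not. These tail counts include the 4 T3 arrays, on which the genes were chosen, so part of the overlap restates that choice. On T3 arrays tuba1 was above background on 3, tubb4b.L on 4 and cct3.S on 3. In hindlimb, tuba1 was above background on 12 of 38 arrays, tubb4b.L on 4 and cct3.S on 1, and tuba1 was so without the others on 9. Here the PTU hindlimbs at 96 h, on which the genes were chosen, are included. The tail arrays with all 3 genes had 56 to 93 pairs above background (median 65), and the 16 tail arrays with none of them had 31 to 64 (median 51).

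**Figure D5:**
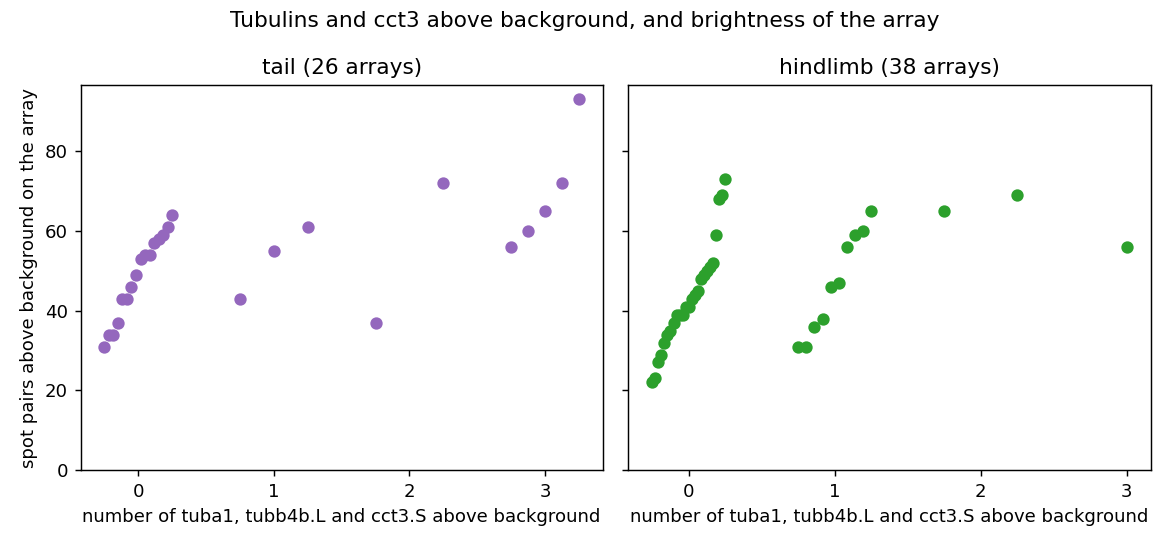
Number of spot pairs above background on each array, against how many of tuba1, tubb4b.L and cct3.S were above background on it, for 26 tail arrays (purple) and 38 hindlimb arrays (green); the sideways spread within a column only separates points. Tail arrays with all 3 genes have at least 56 pairs above background, and 25 hindlimb arrays have none of the 3. The points include T3 tails and PTU hindlimbs at 96 h, on which the genes were chosen.

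Across the arrays of a tissue, which share their groups and their brightness, levels of the genes were correlated as a description. In tail tuba1 and tubb4b.L had a Pearson r of 0.586 and a Spearman rho of 0.633 (n = 25). The r was 0.529 after the group means were removed and 0.420 without the T3 arrays, on which the genes were chosen. For tuba1 and cct3.S in tail r was 0.460 (rho 0.413, n = 24) and 0.03 after group means were removed, and it was 0.274 without the T3 arrays. For tubb4b.L and cct3.S in tail r was 0.203 (rho 0.141, n = 25), but 0.02 after group means were removed and -0.161 without the T3 arrays. tuba1 in tail also had an r of 0.652 with the number of pairs above background on the array (rho 0.633, n = 25). With that number tubb4b.L had an r of 0.226 and cct3.S of 0.273 in tail. In hindlimb the r with it was 0.097 for tuba1, 0.214 for tubb4b.L and 0.179 for cct3.S. In hindlimb r was 0.165 for tuba1 and tubb4b.L (rho 0.07, n = 38), 0.324 for tuba1 and cct3.S (rho 0.265, n = 37) and 0.08 for tubb4b.L and cct3.S (rho -0.02, n = 37). After group means were removed these were -0.014, 0.239 and -0.129. The hindlimb arrays include those of PTU at 96 h, on which the genes were chosen. The duplicate spots of tuba1 had an r of 0.695 in tail and 0.575 in hindlimb, and those of tubb4b.L 0.512 in tail and 0.351 in hindlimb. Those of cct3.S had 0.253 in tail and -0.167 in hindlimb.

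The named genes with levels most like those of each gene were taken by Pearson r over the arrays of a tissue. These include the T3 tails and the PTU hindlimbs at 96 h, on which the genes were chosen. For cct3.S in hindlimb the ranking rests on levels mostly at background, with 1 of 38 arrays above it and a duplicate-spot r of -0.167. For tuba1 in tail they were ywhab.L, a 14-3-3 protein gene (r = 0.645, n = 24), cdk1.S, the mitotic kinase gene (0.607, n = 25), and pabpc1.S, a poly(A)-binding protein gene (0.591, n = 25). For tubb4b.L in tail they were pabpc1.S (0.616, n = 26), tuba1 and ccnd1.L, the cyclin D1 gene (0.529, n = 26). For cct3.S in tail they were odc1.L, the ornithine decarboxylase gene (0.560, n = 25), tuba1 and thdl17.L (0.452, n = 25). In hindlimb they were odc1.L (0.478, n = 37), cdk1.S (0.438, n = 38) and des.1.S (0.436, n = 38) for tuba1. For tubb4b.L in hindlimb they were mamdc2.L (0.377, n = 38), cdk1.S (0.291, n = 38) and nfib.L, a transcription factor gene (0.254, n = 38). For cct3.S in hindlimb they were gapdh.S, the glycolytic enzyme gene (pair 397, 0.366, n = 37), hmgn3.L, a nucleosome-binding protein gene (0.337, n = 35), and pkm.S, the pyruvate kinase gene (0.335, n = 37). Tubulin genes form a family of near-identical sequences, so signal of relatives on the tuba1 and tubb4b.L spots is uncertain.

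Few other genes of the microtubule system had a name on the array. The remaining tubulin was tubd1.L, a delta-tubulin gene, which was above background on 0 of 38 hindlimb and 2 of 26 tail arrays, T3 replicate 2 and T4 replicate 3. The list of microtubule-binding and motor genes held tacc3.S, a spindle protein gene, kif2c.S, a kinesin gene, and katna1.S, the gene of the severing enzyme katanin. They were above background on 1 hindlimb array (tacc3.S), on 2 tail arrays (kif2c.S) and on 0 of 64 arrays (katna1.S). None of these 4 genes was tested in the comparisons of T3 in tail and PTU in hindlimb at 96 h. The chaperonin list held cct3.S alone, and the lists of other cytoskeletal and heat shock genes matched 0 named pairs.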

How the data were processed

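Amplified RNA of single animals carried a P32 label on cDNA arrays, per the labels' protocols. The deposited intensity values hold 812 spots on 64 arrays, with background subtracted as their negative values show. The sources used here give no scanner, background method or scaling. Spot pairs were named by the platform's symbols, updated through gene identifiers for 233 of 237 named pairs. tuba1 kept its platform symbol. Blank spots made up 0.739 to 12.4% of an array, and 0 arrays held identical values.

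Here limma 3.58.1 in R 4.3.3 was used to apply normexp (offset 50) to the intensities. Their log2 values were quantile normalized by tissue, and duplicate spots were then averaged. Noise was 1.4826 times the median size of an array's negative values. Low values are compressed by this treatment. All arrays of a tissue were fitted by lmFit with 1 coefficient for each group. Testing required 3 arrays above background among the groups of a comparison, and p-values were adjusted by Benjamini-Hochberg over the tested pairs at a threshold of 0.05. The tissue comparison used jointly normalized control arrays and a fixed term for exposure set. The prior of eBayes came from the pairs that 3 or more arrays of the tissue showed above background. That choice was made after results under 3 choices of prior had been seen, and because it gave standard errors close to those of an earlier analysis of these data. The count of calls under each choice is given in the closing section.

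The procedure was tested on simulated data for T3 in tail alone, with changes placed only in bright pairs. Changes in dim pairs, such as those of the 3 genes, were not covered by it. Alternatives covered the arrays fitted, 4 other normalizations, the background treatment, the offset, the filter, blank spots, array weights, single spots, the replicate number as a block and each array left out. The genes, lists and named-gene rule were chosen with earlier results of these data known. Genes most like each gene are the 3 with the highest r, among named pairs that 3 or more arrays showed above background, with 20 or more arrays in common.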

Additional observations from a re-analysis of the deposited data

Results flagged for a closer look

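In the 9 control hindlimbs at 24 h, normalized with the tail controls, replicate 2 of the T4-set controls had the lowest tubb4b.L level, 7.94, and the next lowest control was at 9.46. It stood apart from the others by Dixon's criterion, which was met in 1 of 17 groups examined, and chance meets it in about 1 of 20 groups. Its deposited intensity was -1013, from 1 spot below background, the duplicate being blank.

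tubb4b.L with PER in the hindlimb had a change of 0.52 at 96 h and of -0.64 at 24 h, with all 3 treated animals on the same side of the control mean each time. cct3.S with PER had a change of -0.68 in tail at 48 h and of 0.48 in hindlimb at 96 h, with all measured PER animals of a tissue on 1 side. The second of these did so on 2 hindlimb arrays, the other being blank. With arrays centred on their bright pairs, tubb4b.L with PER in the hindlimb read -0.35 at 96 h and 0.12 at 24 h, so both signs turned. The median of all tested pairs was then -0.32 at 96 h and 0.55 at 24 h. Relative to it tubb4b.L read -0.03 at 96 h and -0.43 at 24 h. Under this centring cct3.S with PER read -0.47 in tail and -0.30 in hindlimb at 96 h, so its signs were no longer opposite. Relative to the median of tested pairs cct3.S read -0.47 in tail and 0.02 in hindlimb. The PER contrasts of these genes are 2 of 33 such contrasts examined, and neither difference was tested. Neither gene was above background on any PER hindlimb array.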

How the results depend on the processing

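The changes of tuba1, tubb4b.L and cct3.S with T3 in tail and of tuba1 with PTU in hindlimb at 96 h kept their sign under every alternative run. tuba1 with T3 ran from 1.15 to 1.91 (1.28 to 1.91 with single arrays left out), tubb4b.L from 0.78 to 2.02 (1.23 to 1.68), cct3.S from 0.77 to 1.86 (0.96 to 1.86), and tuba1 with PTU from 1.36 to 2.37 (1.47 to 2.16). tubb4b.L with T3 moved by more than its spread with median centring (1.98), with the first spot alone (2.02) and with the second spot alone (0.78). The cause was not tested. tuba1 with T3 in hindlimb at 24 h, 0.16 as reported, was -0.041 on the deposited scale, -0.25 with a floor in place of normexp and -0.26 with the first spot alone. Leaving out single arrays gave -0.12 to 0.50. tuba1 in tail against hindlimb controls, -0.20 as reported, was 0.45 with bright centring and 0.011 with the floor. The median of all tested pairs was then 0.45 with bright centring and 0.15 with the floor. Relative to it tuba1 read 0.002 and -0.14.

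Of 52 pairs with T3 in tail, 0 were called as reported, 2 with only the compared groups fitted, 3 with the floor and 1 without control replicate 3. With the eBayes prior taken from all 406 pairs, an alternative added after seeing the data, 1 was called, and with the prior from the tested pairs 0 were. Of 47 pairs with PTU at 96 h, 5 were called as reported and with either of those priors. The other alternatives gave 0 to 9. The counts of these comparisons thus depend on such choices. Dim signal over background limits all 3 genes. Over the other changes of these genes, 103 of 883 alternative values either had another sign than the one reported or were 0.

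The replicate numbers did not pair arrays. Arrays of the same number deviated together with a mean r of 0.06 in hindlimb and -0.06 in tail, with r over 0.1 in 8 of 24 and 1 of 15 cases. With a replicate block, the changes with T3 in tail were 1.46 for tuba1, 1.30 for tubb4b.L and 1.476 for cct3.S, and tuba1 with PTU at 96 h stayed at 1.89. The block gave 0 calls for MMI and PER at 96 h, against 2 and 1 without it, and changed no count in the other comparisons.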
